A study of Mus musculus with 6 samples.

Results

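The natriuretic peptide system was read in the apex of 6 mouse hearts, through every probe set whose annotated gene is a peptide (Nppa, Nppb, Nppc), a protease that cuts their precursors (Corin, Furin) or a receptor (Npr1, Npr2, Npr3). A probe set is a group of array probes for 1 transcript. The rule found 8 of the 18193 genes that the annotation names, through 10 of the 45101 probe sets on the array: Npr3 through 3 probe sets and each of the others through 1.

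All animals were male, 6 to 7 weeks old, and Fog2flox/delta: they carried 1 floxed and 1 deleted (delta) allele of Fog2, official symbol Zfpm2, which encodes a cofactor of GATA transcription factors. Of the 6 hearts, 3 also carried an alpha MHC Cre transgene (aMHC_Cre 1 to 3), whose promoter drives Cre recombinase in cardiomyocytes. The other hearts had no Cre (no_Cre 1 to 3). There was 1 array per sample, and the titles call the 3 samples of a group biological replicates. Whether a sample pooled hearts is not stated. The hearts without Cre were not wild type, because they carried the deleted allele too. Since every Cre heart also carried the floxed allele, effects of Cre itself and of the loss of Fog2 cannot be told apart.

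Natriuretic peptides are hormones that promote salt and water excretion and relax blood vessels. Nppa encodes atrial natriuretic peptide (ANP) and Nppb B-type natriuretic peptide (BNP), which cardiomyocytes secrete when the heart wall is stretched. Corin cuts the ANP precursor and furin the BNP precursor. Both hormones bind the receptor encoded by Npr1, a membrane guanylyl cyclase that makes the messenger cGMP. C-type natriuretic peptide, from Nppc, acts through the related cyclase encoded by Npr2, and the Npr3 receptor, which has no cyclase domain, clears all 3 peptides from the circulation.

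The promoters of Nppa, Nppb and Npr3 are shown because these 3 genes were higher with Cre, and because Fog2 acts through GATA factors. They come from RefSeq on build GRCm38.p6, which matched all 8 genes, and span 250 bases before to 50 bases after the gene's start. Capitals mark the letters GATAA, a core of GATA factor binding sites, on either strand (TTATC on the other). The Nppa window is chr4:148000472-148000771 on the plus strand, the Nppb window chr4:147985650-147985949 on the plus strand and the Npr3 window chr15:11907322-11907621 on the minus strand.
Nppa: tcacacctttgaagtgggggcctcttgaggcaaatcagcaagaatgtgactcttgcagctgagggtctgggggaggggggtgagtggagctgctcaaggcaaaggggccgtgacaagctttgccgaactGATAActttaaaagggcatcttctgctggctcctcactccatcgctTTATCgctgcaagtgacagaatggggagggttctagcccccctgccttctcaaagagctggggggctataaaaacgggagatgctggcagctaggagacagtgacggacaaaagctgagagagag
Nppb: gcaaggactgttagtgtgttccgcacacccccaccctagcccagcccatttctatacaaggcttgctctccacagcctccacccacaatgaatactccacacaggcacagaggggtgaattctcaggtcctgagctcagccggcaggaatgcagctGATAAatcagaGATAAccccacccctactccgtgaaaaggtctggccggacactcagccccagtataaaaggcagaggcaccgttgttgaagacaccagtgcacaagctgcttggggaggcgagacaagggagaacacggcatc
Npr3: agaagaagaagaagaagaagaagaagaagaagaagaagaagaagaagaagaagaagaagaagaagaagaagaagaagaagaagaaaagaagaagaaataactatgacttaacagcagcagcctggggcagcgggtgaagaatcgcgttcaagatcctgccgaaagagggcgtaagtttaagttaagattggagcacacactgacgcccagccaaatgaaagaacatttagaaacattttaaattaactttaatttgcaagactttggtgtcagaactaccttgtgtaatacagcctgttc

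The Nppa window held 2 matches to GATAA, starting at positions -121 and -75 from the gene's start, that at -75 on the opposite strand. The Nppb window held 2 as well, at -94 and -83. Of all 32851 promoter windows of this length, 25.41% held at least 1 match and 5.27% held 2 or more. None of the other 7 windows of the member genes, Npr3 included, held these letters (Furin has 2 windows). Other motifs were searched on both strands. The T-box letters TCACACC stood in the Nppa window alone of the member windows, at -250 (3.98% of all windows). The Nkx2-5 core AAGTG had 2 matches in the Nppa window, at -239 and -65, and not in the Nppb window. A Furin window held it too, at -204, -168, -76, -37 and -4. Of all windows, 46.38% hold it and 13.73% hold 2 or more matches. The TEAD letters GGAATG stood in the Nppb window at -105 (14.66%), and TATAAA in the Nppa window at -9 and in the Nppb window at -31 (13.62%), as well as in the Nppc window and a Furin window. No CArG box, the binding site of serum response factor, was matched in any member window (1.63% of all). None of the matches in the Nppa and Nppb windows overlapped each other. A match is a run of letters and not a measured binding site.

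Cardiomyocyte markers were bright in the apex: all 8, among them Myh6, Myl2 and Tnnt2, read between 12.27 and 13.90 on the log2 scale in every heart. The atrial markers were mixed. Sln and Bmp10 read 2.57 to 5.74 and Dkk3 4.08 to 5.85, but Stard10 read 7.33 to 7.84, Myl4 8.30 to 8.68 and Kcnj3 9.73 to 10.58. Myl7 read 10.72 to 11.42 with Cre and 3.39 to 4.34 without Cre. Array medians ran from 5.72 to 5.81 and array maxima from 13.97 to 14.00. Across tested probe sets, pairs of arrays correlated at 0.980 to 0.987 within a group and at 0.964 to 0.973 between groups. The targeted gene Zfpm2 has 2 probe sets that went opposite ways. The part of the gene that each one measures is not stated here. The brighter read 10.71, 10.48 and 10.50 with Cre, against 8.86, 8.83 and 8.95 without Cre, and the dimmer differed by -0.88 ± 0.13 (SE), so these probe sets do not by themselves check the deletion.

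Nppa and Nppb were both higher in hearts with Cre, about 4-fold and 12-fold, and so was the clearance receptor gene Npr3, a little over 2-fold. The genes of the processing proteases, the signalling receptors and C-type natriuretic peptide did not pass the test. Counted as genes through their brightest probe set, 3 of the 7 that passed the filter on dim probe sets rose with Cre, 0 fell and 4 did not pass, and Nppc was too dim to be tested there. The test was limma with Benjamini-Hochberg adjustment over 27022 probe sets and a threshold of 0.05. Of all genes tested, 6.24% passed (4.2% rose and 2.04% fell). By probe set, 5 of 9 rose (1 of Npr3's passed the filter only through the hearts with Cre) and 0 fell, while 5.23% of all tested passed (3.43% rose and 1.79% fell). Groups were fully separated in 5 of 9, against 23.5% of all tested. The median difference over the 7 genes was 0.31 on the log2 scale, against -0.01 over all genes tested. The members, and the lists below, were chosen with earlier results of these data known. Their counts and shares are therefore a description and not a test. The hearts are bulk tissue, so for every gene below a change in the number of cells of a type and a change in RNA per cell cannot be told apart.

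**Figure D1:**
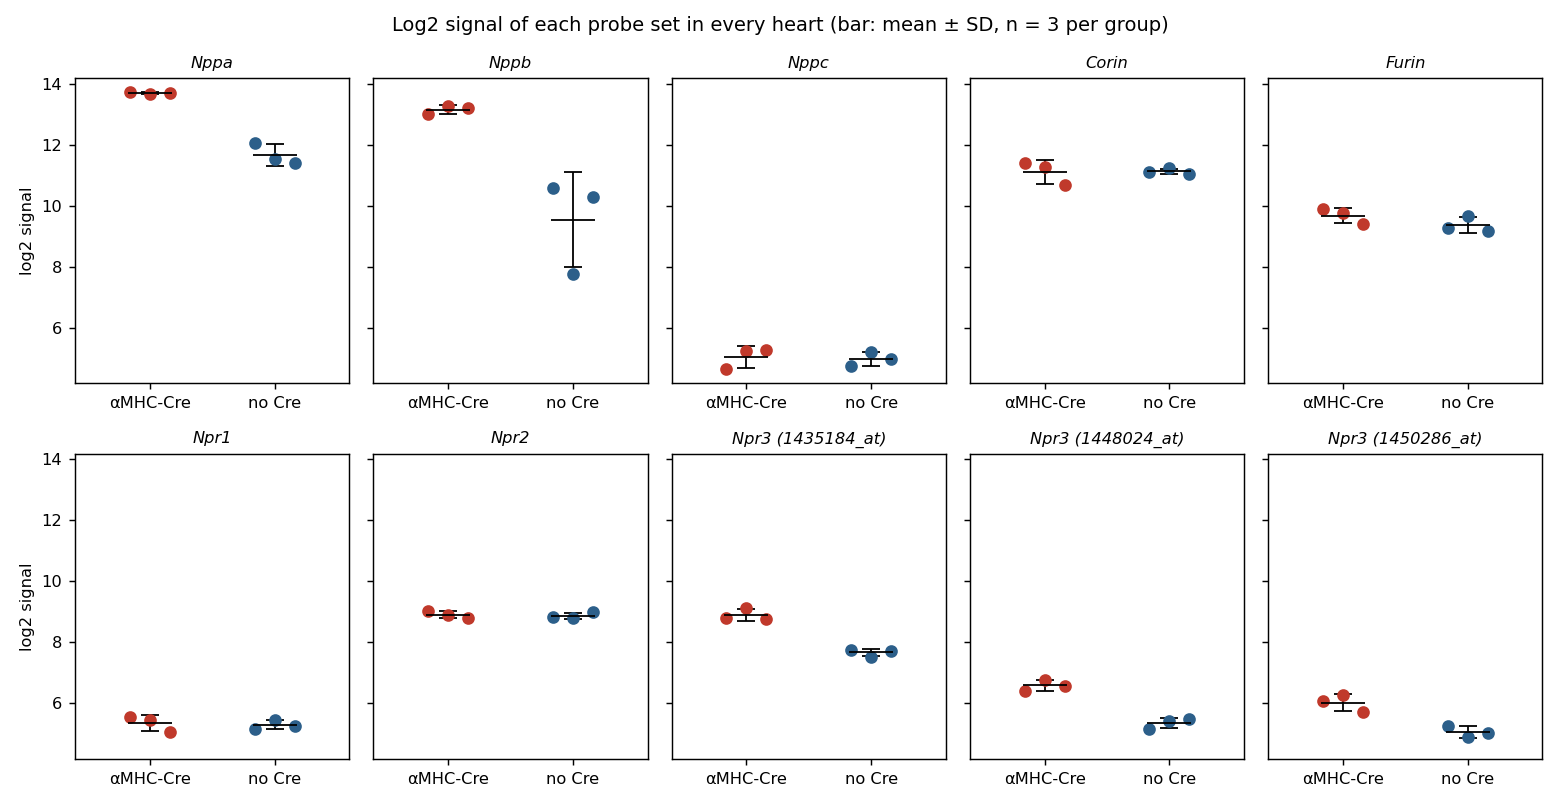
Log2 signal (y axis) of the 10 probe sets in each heart, with 3 alpha MHC Cre hearts in red on the left and 3 no Cre hearts in blue on the right, and bars for the group mean ± SD. Nppa, Nppb and all 3 Npr3 probe sets have groups that do not overlap, and the lowest Nppb point, at 7.76, is heart no_Cre 2.

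Among the peptides, Nppa read 13.72, 13.68 and 13.69 on the log2 scale in hearts aMHC_Cre 1 to 3, against 12.07, 11.54 and 11.40 in hearts no_Cre 1 to 3. The groups were separated by 1.61, and the hearts with Cre lay within a narrow band. The mean was 13.70 ± 0.02 (SD, n = 3) with Cre and 11.67 ± 0.35 without Cre. Nppa rose by 2.03 ± 0.17 (SE), a fold of 4.08 with a 95% interval of 3.12 to 5.33 (limma, adjusted p = 0.00032). Each heart with Cre read within 0.26 to 0.31 of the highest value on its own array, so little of the scale was left above them, and whether this compressed the rise or the spread with Cre was not tested. Without Cre, Nppa already read high, and 1.91 to 2.57 below the array's highest value. Tested without the filter on dim probe sets, where 0.611% of probe sets were called, Nppa still passed (limma, adjusted p = 0.030).

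Nppb read 12.99, 13.26 and 13.19 on the log2 scale with Cre, against 10.58, 7.76 and 10.28 without Cre. The groups did not overlap, and heart no_Cre 2 stood 2.67 below the mean of the other hearts without Cre. The mean was 13.15 ± 0.14 (SD, n = 3) with Cre and 9.54 ± 1.55 without Cre. Nppb rose by 3.61 ± 0.60 (SE), a fold of 12.2 with a 95% interval of 4.73 to 31.4 (limma, adjusted p = 0.010). Without no_Cre 2 the fold was 6.58, with a log2 difference of 2.72 ± 0.15 and an adjusted p of 0.00015 by limma. The call was lost without aMHC_Cre 2 (adjusted p = 0.058), with trend and robust variance (0.12) and without the filter on dim probe sets (0.15).

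The low Nppb signal of no_Cre 2 was not shared by Nppa, which in that heart lay 0.20 below the mean of the other hearts without Cre. Of 27022 tested probe sets, 8 read more than 2 log2 units lower in no_Cre 2 than in the mean of the other hearts of its group. The corresponding counts for the other 5 hearts ran from 3 to 14. Nppb ranked 4 of those 8, after Rps9 (-5.10), Klhl32 (-4.81) and Pheta1 (-3.35). Below it came Mysm1 (-2.35), Mrap (-2.05) and 2 probe sets of Ankrd1 (-2.05 and -2.03), a stretch-responsive nuclear protein of muscle. These genes were named after their values were seen. With Cre, Nppb read 0.71 to 0.98 below the highest value on each array, against 3.40 to 6.23 without Cre, and whether the upper end of the scale narrowed its spread or its rise was not tested.

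Nppc was dim in all hearts. It read 4.63, 5.24 and 5.25 on the log2 scale with Cre, against 4.74, 5.19 and 4.95 without Cre, with overlapping groups. Its mean was below the filter, so it was fitted without that filter, with a difference of 0.08 with a 95% interval of -0.48 to 0.64 (limma, adjusted p = 0.93). With 3 arrays a group, a change in signal within that interval was not excluded. Whether the dim signal of Nppc hid a change in RNA was not tested.

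**Figure D2:**
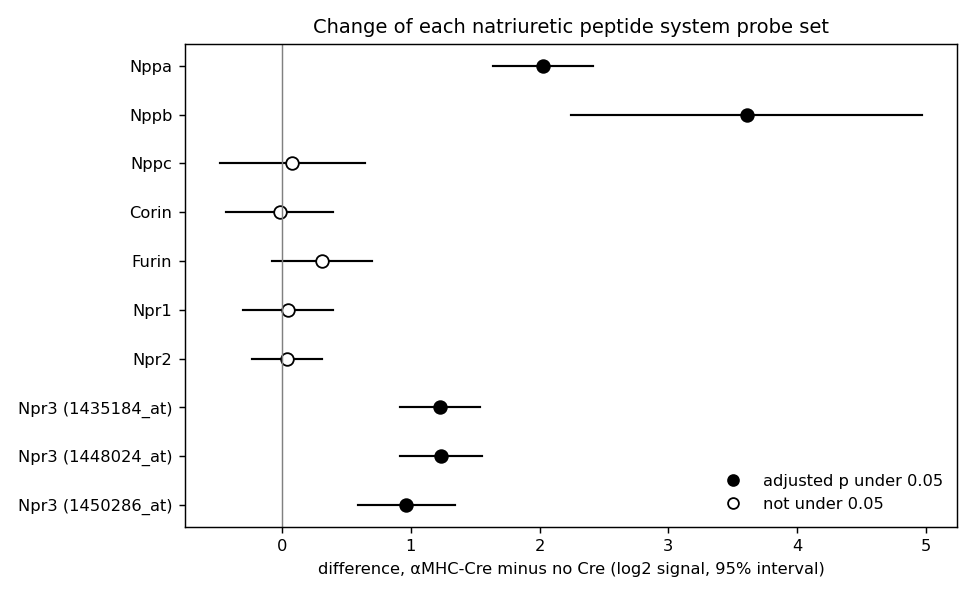
Difference between alpha MHC Cre and no Cre hearts (x axis, log2 signal) for each probe set, with the 95% interval from limma as a line and filled points for adjusted p under 0.05. Nppa, Nppb and the 3 Npr3 probe sets lie to the right of 0, and the intervals of the other 5 probe sets include 0.

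Of the proteases, Corin, the transmembrane serine protease of cardiomyocytes that cuts pro-ANP, read 11.39, 11.25 and 10.67 on the log2 scale with Cre, against 11.11, 11.22 and 11.04 without Cre. The groups overlapped, and aMHC_Cre 3 was the lowest of the 6 hearts. The difference was -0.02 with a 95% interval of -0.44 to 0.40 (limma, adjusted p = 0.98), which is a fold between 0.739 and 1.32. Without aMHC_Cre 3 the difference was 0.20 and still did not pass.

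Furin, a proprotein convertase of the secretory pathway with many substrates besides pro-BNP, read 9.88, 9.75 and 9.39 on the log2 scale with Cre, against 9.27, 9.65 and 9.17 without Cre. The groups overlapped through no_Cre 2. The difference of 0.31 had a 95% interval of -0.08 to 0.70 (limma, adjusted p = 0.40). For neither protease was there a change as large as that of the peptides within the interval.

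Among the receptors, Npr1, whose product binds ANP and BNP, was dim. It read 5.53, 5.44 and 5.06 on the log2 scale with Cre, against 5.17, 5.47 and 5.25 without Cre, with overlapping groups. The difference was 0.05 with a 95% interval of -0.30 to 0.40 (limma, adjusted p = 0.92). Npr2, the receptor gene for C-type natriuretic peptide, read 9.03, 8.89 and 8.81 with Cre, against 8.83, 8.78 and 8.99 without Cre. Here too the groups overlapped, and the difference was 0.04 with a 95% interval of -0.23 to 0.31 (limma, adjusted p = 0.92). Across the intervals, the cyclase receptor genes could differ by a fold of 0.812 to 1.32 for Npr1 and of 0.851 to 1.24 for Npr2.

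Npr3 has 3 probe sets, and the brighter 2 had mean signals above the filter's limit in both groups. The brightest read 8.81, 9.12 and 8.75 on the log2 scale with Cre, against 7.76, 7.53 and 7.71 without Cre. It rose by 1.22 ± 0.14 (SE), a fold of 2.34 with a 95% interval of 1.88 to 2.90 (limma, adjusted p = 0.0015). The groups were separated by 0.99, and no heart stood far from its group.

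The middle Npr3 probe set by brightness read 6.41, 6.75 and 6.58 with Cre, against 5.15, 5.41 and 5.49 without Cre, and rose by 1.24 ± 0.14 (SE; limma, adjusted p = 0.0016). The dimmest read 6.06, 6.28 and 5.72 with Cre, against 5.26, 4.89 and 5.01 without Cre, and rose by 0.97 ± 0.17 (SE; limma, adjusted p = 0.012). Its mean without Cre, 5.06, was under the filter's limit of 5.16, so it was tested only through its signal with Cre. With 64 added to the unlogged signal, the differences of the middle and the dimmest were 0.61 and 0.41. Without the filter the brighter 2 still passed (limma, adjusted p = 0.044 and 0.046) and the dimmest did not (0.13). The dimmest also lost its call without aMHC_Cre 2 (adjusted p = 0.058). Heart aMHC_Cre 2 was the highest of the 6 in every Npr3 probe set.

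The changes of the 3 Npr3 probe sets were compared pairwise within hearts, and that of the brightest with the changes of Npr1 and Npr2, 5 comparisons in all. The rise of the brightest exceeded the change of Npr1 by 1.18 and that of Npr2 by 1.18 on the log2 scale, and in both cases every heart with Cre lay beyond every heart without Cre. Each gave p = 0.1 in a two-sided exact permutation test (0.167 after adjustment over the 5), and 0.1 is the smallest value that 3 hearts against 3 allow. The comparison with Npr1 is limited by the dim signal of Npr1. Between Npr3 probe sets, the rises of the brightest and the middle differed by -0.01 (exact permutation p = 1), and the brightest exceeded the dimmest by 0.26 (exact permutation p = 0.1, adjusted 0.167). The middle exceeded the dimmest by 0.27 (exact permutation p = 0.5, adjusted 0.625).

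Npr3 marks the endocardium among other cells, so a list of endocardial markers is given beside it. All 6 were on the array, 4 were tested and 3 rose. Plvap, a protein of endothelial diaphragms, rose by 1.55 ± 0.12 (SE) on the log2 scale, Vwf, von Willebrand factor, by 1.12 ± 0.17, and Tmem108 by 2.60 ± 0.26 (limma, adjusted p = 0.00020, 0.0066 and 0.00075). The fourth, Cytl1, differed by 0.27 (adjusted p = 0.35). The summed unlogged signal of the list was 1744 to 1920 with Cre, against 682 to 868 without Cre. Nrg1, too dim for the filter, read 6.17 to 6.31 with Cre and 3.46 to 3.82 without Cre, and passed in the fit without the filter (limma, adjusted p = 0.0083). In that fit Plvap and Tmem108 passed too (0.016 and 0.049) and Vwf did not (0.098). Hapln1 read 2.41 to 3.40 in all hearts. Of 8 general endothelial markers 0 passed (limma, lowest adjusted p 0.077, 1 with an unadjusted p under 0.05), with a summed signal of 5805 to 6226 with Cre against 4861 to 6139 without Cre. The part of these cells in the rise of Npr3 was not tested.

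Nppa is also a marker of atrial muscle, so atrial markers stand beside the peptides. Of 7, 4 were tested and only Myl7, the atrial regulatory myosin light chain, rose, to 11.02 ± 0.36 (SD, n = 3) with Cre, against 3.72 ± 0.54 without Cre. The mean of Myl7 without Cre was under the filter's limit of 5.16, so Myl7 was tested only through its signal with Cre. Myl4, the atrial essential light chain, differed by -0.02, Stard10 by -0.31 and Kcnj3, an atrial potassium channel subunit, by 0.27, without passing. Sln, which encodes sarcolipin and defines atrial muscle, read 2.89 to 4.01 with Cre and 2.57 to 3.05 without Cre, and Bmp10 read 4.24 to 5.16 with Cre and 5.09 to 5.74 without Cre. Dkk3, below the filter, read 5.79 to 5.85 with Cre and 4.08 to 4.20 without Cre, and passed without the filter (limma, adjusted p = 0.0083). The summed unlogged signal of the list was 3719 to 4613 with Cre, against 1579 to 2004 without Cre. Most of that difference came from Myl7, so the sum does not show a rise of the list as a whole. The median difference of the 4 tested markers was 0.12 on the log2 scale. Of the Purkinje and conduction markers, 4 of 7 were on the array, 2 were tested and 0 passed (limma, lowest adjusted p 0.44, 0 with an unadjusted p under 0.05), with sums of 531 to 790 with Cre and 539 to 1091 without Cre. The part of atrial cells in the rise of the peptides was not tested.

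The remaining marker lists are given as counts. Fibroblast markers rose in 3 of 7 cases (Lum, Dpt and Col1a1), where 4.2% of all genes tested rose. The summed signal was 22573 to 24339 with Cre against 17037 to 18967 without Cre. All 7 differences were positive, at 0.21 to 1.41 on the log2 scale with a median of 0.54. Of the 7, 6 had an unadjusted p under 0.05 by limma. Without the filter, the 3 that rose did not pass (limma, adjusted p 0.080 for Lum, 0.19 for Dpt and 0.11 for Col1a1). None of 7 smooth muscle and pericyte markers, 5 macrophage markers, 2 red blood cell markers or 8 cardiomyocyte markers passed (limma, with 1, 1, 0 and 0 of them at an unadjusted p under 0.05), and all 4 epicardial markers were below the filter. The part of fibroblasts in the changes of the peptide system was not tested.

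The genes around the system were read from lists chosen by their roles, with earlier results of these data known. Of 14 tested effectors of cGMP and phosphodiesterases, 2 rose, 1 fell and 11 did not pass, with a median difference of 0.05 on the log2 scale. Prkg1, the cGMP-dependent protein kinase on which Npr1 signalling converges, read 9.46, 9.12 and 8.87 with Cre, against 8.42, 8.35 and 7.94 without Cre, and rose by 0.91 ± 0.18 (SE; limma, adjusted p = 0.023). Pde3b, a phosphodiesterase whose activity cGMP inhibits, rose by 0.68 ± 0.15 (adjusted p = 0.037). Rgs2, a regulator of G protein signalling that the kinase activates, read 9.56, 8.99 and 8.43 with Cre, against 10.45, 10.00 and 10.56 without Cre, and fell by 1.34 ± 0.27 on the log2 scale (adjusted p = 0.022).

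In none of these 3 genes did the groups overlap. Leaving out any single heart ended the call of Pde3b (limma, adjusted p 0.051 to 0.12). Prkg1 lost its call without aMHC_Cre 1, aMHC_Cre 2 or no_Cre 3 (adjusted p 0.063 to 0.091), and Rgs2 without aMHC_Cre 2, no_Cre 1 or no_Cre 3 (0.064 to 0.094). Another probe set of Prkg1 differed by 0.61 (adjusted p = 0.063). Ppp1r12a, a myosin phosphatase subunit counted as not passing, had 1 dimmer probe set of 4 that passed, at 0.61 (adjusted p = 0.045), named after its values were seen. Of the other 3 of Rgs2, 2 fell, by 1.29 and 1.55 on the log2 scale, and 1 differed by -0.25 (adjusted p = 0.35). None of the 3 subunit genes of soluble guanylyl cyclase, the cyclase that nitric oxide activates, passed. None had an unadjusted p under 0.05, and Gucy1a1 differed by -0.14 and Gucy1a2 by 0.04 (adjusted p = 0.64 and 0.95).

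Peptide degradation held 1 gene that passed of 4 tested. Mme encodes neprilysin, the membrane peptidase that degrades ANP. It read 5.61, 4.82 and 5.02 on the log2 scale with Cre, against 6.53, 6.43 and 7.02 without Cre. The groups did not overlap, and Mme fell by 1.51 ± 0.23 (SE) on the log2 scale (limma, adjusted p = 0.0061). The mean with Cre, 5.15, was under the filter's limit of 5.16, so Mme was tested only through its signal without Cre. Its call was kept whichever heart was left out and lost without the filter (adjusted p = 0.11), and the difference was -0.73 with 64 added to the unlogged signal. The other 3 tested, Ide, Dpp4 and Ece1, did not pass, Mep1a and Mep1b were below the filter, and the decoy ligand gene Ostn was not named in the annotation.

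Of 8 tested genes of proprotein convertases and secretory granules, 1 rose, 1 fell and 6 did not pass. Chga, chromogranin A of secretory granules, read 6.36 to 6.90 on the log2 scale with Cre, against 7.21 to 7.25 without Cre, and fell by 0.63 ± 0.15 (SE; limma, adjusted p = 0.044). Galnt2, an enzyme that starts O-linked glycosylation, rose by 0.50 ± 0.12 (adjusted p = 0.046), and its other 2 probe sets did not pass. Galnt2 no longer passed with any single heart removed (adjusted p 0.061 to 0.16), nor did Chga, unless the removed heart was aMHC_Cre 3 (0.098 to 0.17).

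Of 20 transcription factor genes known to act on Nppa or Nppb, each read through its brightest probe set, 2 rose, 0 fell and 18 did not pass. Of all genes tested, 6.24% passed. The median difference was 0.0050 on the log2 scale, with a range of -0.49 to 1.68. Of the 20, 6 had an unadjusted p under 0.05 by limma. Among those that did not pass, Tbx5 differed by -0.49 (limma, adjusted p = 0.058). Tbx20 differed by 0.45 (0.099), and by 0.47 through its dimmer probe set (0.058). Tbx5 and Tbx20 were named after their values were seen. The 2 that rose were Zfpm2, the targeted gene itself, and Nkx2-5, the cardiac homeobox factor. The dimmer Zfpm2 probe set passed in the other direction, at -0.88 (limma, adjusted p = 0.0052), so the count does not settle the direction of Zfpm2. Nkx2-5 read 10.33, 10.23 and 10.39 with Cre, against 9.73, 9.86 and 9.63 without Cre, and rose by 0.58 ± 0.12 (SE; limma, adjusted p = 0.025). That call was lost without each heart except no_Cre 2 (adjusted p 0.070 to 0.090). Without the filter on dim probe sets, Zfpm2 kept its call (adjusted p = 0.014) and the other 7 list genes that had passed lost theirs (Prkg1, Pde3b, Rgs2, Mme, Chga, Galnt2 and Nkx2-5, adjusted p 0.11 to 0.20).

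**Figure D3:**
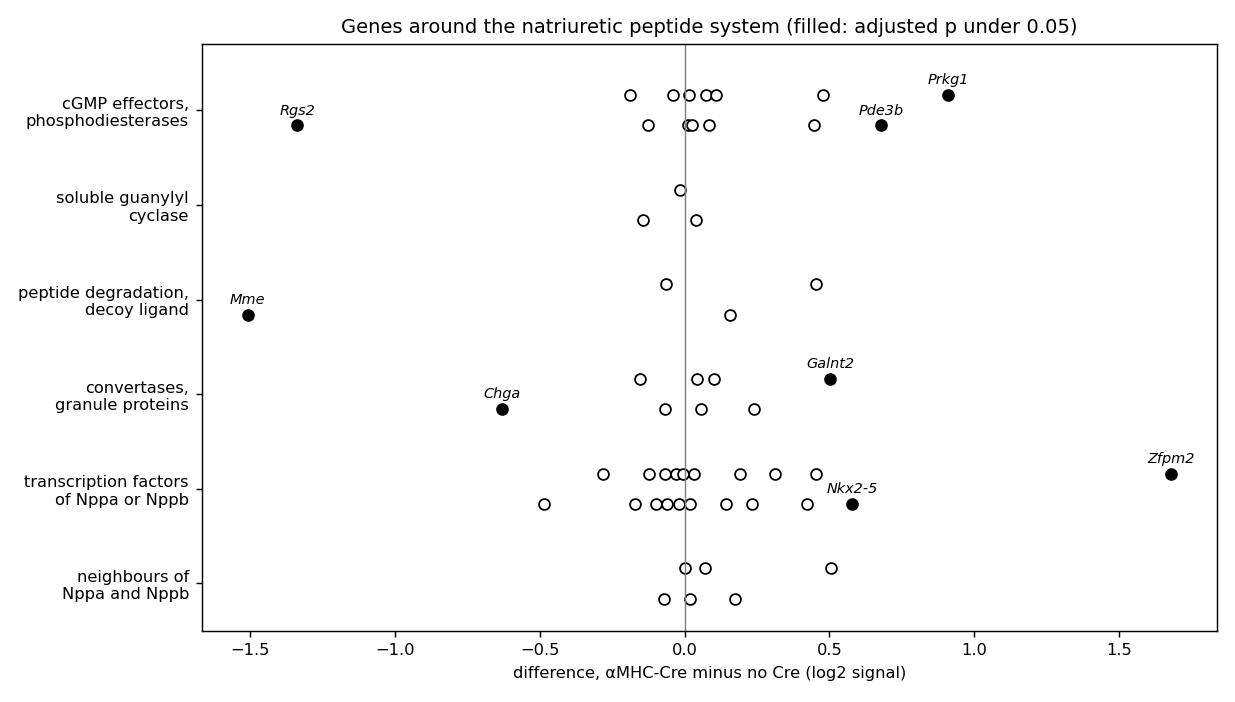
Difference between alpha MHC Cre and no Cre hearts (x axis, log2 signal) for each tested gene of the lists around the peptide system, 1 row per list, with filled and named points for adjusted p under 0.05. Mme and Rgs2 lie farthest to the left, at -1.51 and -1.34, and most points of each list lie near 0.

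Nppb and Nppa are adjacent on chromosome 4. Of the 5 genes on each side of the pair in RefSeq's order, 6 were on the array and tested, and 0 passed (limma, 1 with an unadjusted p under 0.05), with differences of -0.07 to 0.51 on the log2 scale. The lowest adjusted p was 0.066 for Plod1, a lysyl hydroxylase of collagen, at 0.51 ± 0.13 (SE), followed by Mfn2, a mitochondrial fusion protein, at 0.17 (0.58). Clcn6, the nearest neighbour of Nppa, differed by 0.00.

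The genes most like each peptide were found by subtracting each gene's mean without Cre and taking the root mean square of the gap to the peptide over the 6 hearts, among 12318 genes. This is a description, since the same hearts and contrast chose them. The nearest to Nppa were Aldh1b1, a mitochondrial aldehyde dehydrogenase, with a gap of 0.12 log2 units, Masp1, a protease of the lectin complement pathway, with 0.13, and Snap91, a clathrin assembly protein, with 0.18. Met, the receptor of hepatocyte growth factor, and the adhesion molecule Vcam1 followed with 0.18 and 0.19. These 5 differed by 2.02 to 2.11. Met had a mean of 4.43 without Cre, under the filter's limit, so it was tested only through its signal with Cre. The other 4 tested probe sets of Masp1 differed by 0.26 to 2.62.

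Nppb had no gene as near. Casq1, calsequestrin of skeletal muscle, stood first with a gap of 0.67, then Mybpc2, the fast skeletal form of myosin-binding protein C, with 0.79, and the potassium channel subunit Kcne1 with 0.82. The Wnt inhibitor Sost (0.86) and the regulatory light chain Myl9 (0.90) were next, and another probe set of Sost differed by -0.12. Sost had a mean of 3.81 without Cre, under the filter's limit, so it was tested only through its signal with Cre. Casq1 read 6.29 in no_Cre 2, against 7.57 and 7.85 in the other hearts without Cre, and Mybpc2 read 5.60, against 6.58 and 6.87. Both were thus lowest in the heart where Nppb was lowest, as were Kcne1 and Myl9. Sost was lowest in no_Cre 3, at 3.60 against 3.74 in no_Cre 2. The low Nppb value of no_Cre 2 entered the choice of these genes, so a shared low value is no separate observation. The gap between the peptides themselves was 1.39, which put Nppa at place 43 in the order around Nppb and Nppb at place 3957 in the order around Nppa.

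**Figure D4:**
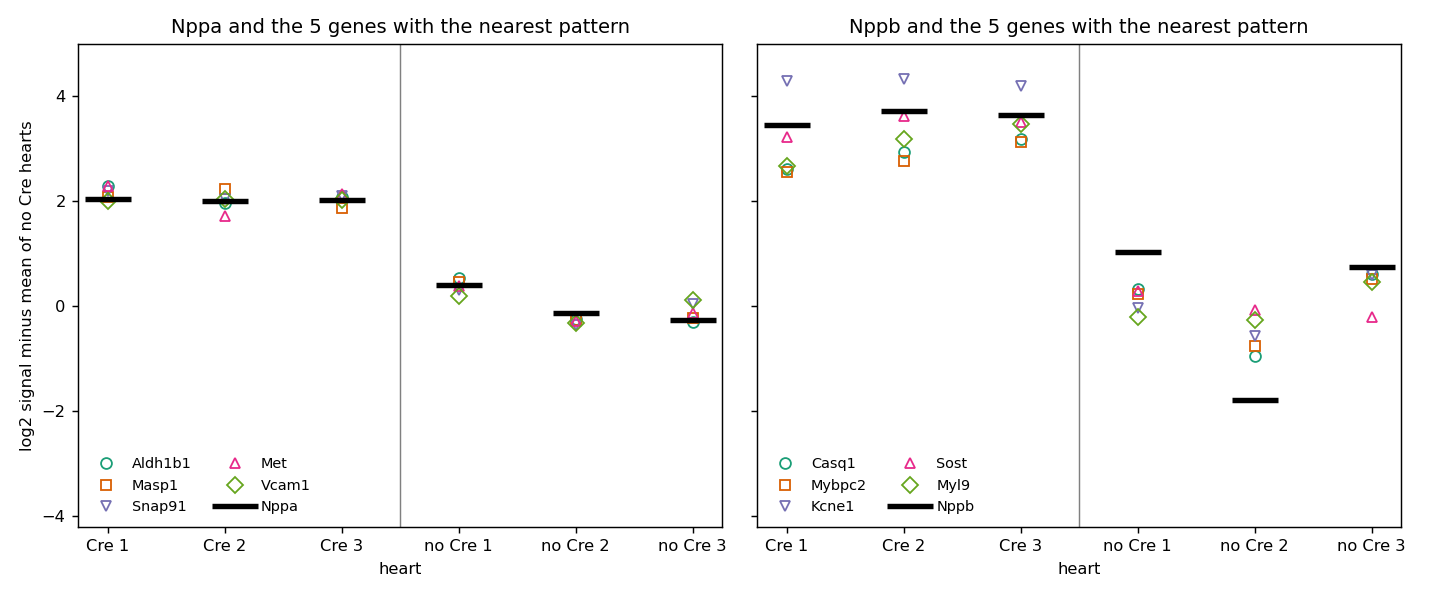
Log2 signal minus the mean of the no Cre hearts (y axis) in each heart (x axis), for Nppa on the left and Nppb on the right (black bars) and the 5 genes nearest to each (open symbols). The symbols lie close to the bars for Nppa, and for Nppb they lie above the bar of heart no_Cre 2.

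**Figure D5:**
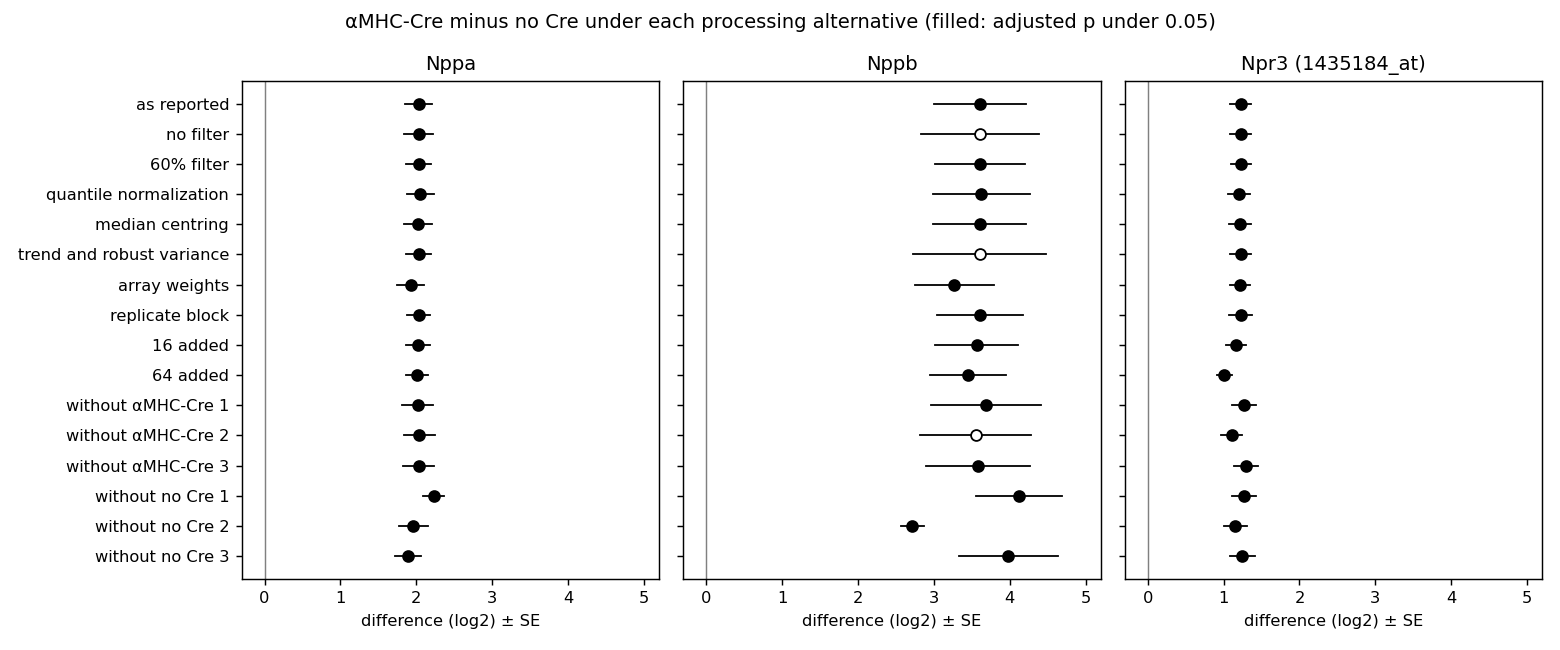
Difference between alpha MHC Cre and no Cre hearts ± SE (x axis, log2 signal) for Nppa, Nppb and the brightest Npr3 probe set under the reported setting and each alternative (rows), with filled points for adjusted p under 0.05. Nppa and Npr3 are filled in every row, and Nppb is open without the filter, with trend and robust variance and without heart aMHC_Cre 2.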

How the data were processed

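Total RNA from the apex of 6 hearts, extracted with Trizol and RNeasy per the labels' protocols, was hybridised to 1 Affymetrix array each. Deposited were log2 signals, 1 for each probe set on each array, made with PLIER per the submitters' processing notes. PLIER's settings and array normalization are not stated there, and base 2 was inferred from the values (array maxima near 14.00). Array medians differed by less than 0.1, so no normalization was added. After removal of 64 controls, the dimmest 40% by mean (18015 probe sets, under 5.16) were dropped, leaving 27022. The test was limma's moderated one (version 3.58.1, R 4.3.3), two-sided and with group as the only term, adjusted by Benjamini-Hochberg. With 3 arrays a group, their number limits the precision, and no detection calls were used.

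Genes were named from the platform annotation: 34945 probe sets carry 1 symbol, 932 several (not named) and 9160 none. Of the first, 34741 matched the RefSeq gene table of GRCm38.p6, which gave names and the order of genes. A gene stands for its brightest probe set. Named were all members, the 5 nearest patterns to each peptide (clone names left out), and per list up to 3 genes past the threshold in each direction or up to 2 as values. Members and lists were chosen with earlier results of these data known. The fit was first tested on simulated data, with noise drawn independently for each probe set. Of 100 probe sets changed by 1 log2 unit 99% were called, and of 100 changed by 2 log2 units 100%. Of 219 calls, 20 were false. Alternatives were other filters (none, 60%), quantile normalization, median centring, trend and robust variance, weighted arrays, a block for the replicate number, 16 or 64 added to the unlogged signal, the mean over a gene's probe sets, and leaving out each heart.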

Additional observations from a re-analysis of the deposited data

How the results depend on the processing

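The count of called probe sets, 1412 as reported, was 275 without the filter, 909 with the replicate number as a block, and 600 (without aMHC_Cre 2) to 1075 (without no_Cre 2) with 1 heart left out. The number of member genes that rose was 2 or 3 under all 16 alternatives. Nppa kept its direction and call in all 15 alternatives that change a single setting, at 1.89 to 2.23 on the log2 scale. Nppb kept its direction in all of them, and lost its call without the filter (3.61, adjusted p = 0.15), with trend and robust variance (3.61, 0.12) and without aMHC_Cre 2 (3.55, 0.058), with a range of 2.72 to 4.12 over hearts left out. Leaving out 1 heart and the filter together was chosen after seeing the data: without aMHC_Cre 1, 2 and 3 and no_Cre 1, 2 and 3, Nppa then differed by 2.02, 2.04, 2.03, 2.23, 1.96 and 1.89 and passed only without no_Cre 1 (adjusted p 0.025, otherwise 0.087 to 0.15). Nppb differed by 3.68, 3.55, 3.58, 4.12, 2.72 and 3.98 and passed only without no_Cre 2 (0.029, otherwise 0.23 to 0.39). The brightest Npr3 probe set kept its call at 1.01 to 1.30, and the middle one, not tested with the 60% filter, at 0.61 to 1.32. The dimmest ranged from 0.41 to 1.12 and lost its call without the filter (0.97, 0.13) and without aMHC_Cre 2 (0.84, 0.058). The low ends came with 64 added to the unlogged signal. Values that did not pass changed sign with single hearts left out, between -0.16 and 0.20 for Corin, -0.046 and 0.19 for Npr1, and -0.018 and 0.10 for Npr2. The cause of these differences was not tested. Whether the replicate numbers pair the hearts is not stated. Deviations of same-numbered hearts from their group means correlated at -0.06, 0.21 and -0.19 across probe sets. With 3 hearts a group, these deviations cancel within a group, so the correlations cannot decide whether hearts were paired. With the replicate block, Nppa (adjusted p 0.0049), Nppb (0.031) and the 3 Npr3 probe sets kept their calls. Signal limits both ends: Nppa with Cre read close to the array maximum, and Npr1 and Nppc close to the filter.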
